A study of Mus musculus with 18 samples.

Results

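In Kat7 knockout (KO) mice, medullary thymic epithelial cells (mTECs) with high surface MHC class II (KO mTEChi) were compared with mTECs with low surface MHC class II (KO mTEClo). The comparison used 6 of the 18 libraries of the series, taken by their labelled genotype, thymic location and MHC class II level, and it covered all genes of the count table. Each of the KO mouse pools 4, 5 and 6 gave 1 KO mTEChi and 1 KO mTEClo library, so that both fractions of a pool came from the same animals. Where the KO contrast was set against wildtype (WT), the 3 WT mTEChi and 3 WT mTEClo libraries of pools 1, 2 and 3 were used, and the 3 cortical epithelial libraries of the KO pools (KO cTEC) served as a further level. All mice were C57BL/6. RNA of the sorted cells was amplified as full-length cDNA with SMART-Seq v4, made into Nextera XT libraries and sequenced on a NextSeq 500. The labels give the genotype as a knockout of Kat7 without naming a Cre driver, the deleted exons, the age of the mice or the number of animals in a pool, and each pool averages its animals.

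KAT7, also called HBO1, is a histone acetyltransferase that works in complexes with BRPF or JADE scaffold proteins. In the thymic medulla, epithelial cells with little MHC class II comprise immature cells and post-Aire cells that resemble cells of other organs, such as tuft cells. Cells with much MHC class II include those that express AIRE, the regulator that lets mTECs transcribe genes of other organs so that developing T cells that react to them can be removed. Signals of the TNF receptor family, chiefly RANK and CD40, act through the noncanonical NF-kB pathway to mature these cells.

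Kat7 itself was read at 2.63, 2.88 and 1.47 CPM (a gene's reads as a rate over all reads of its library, scaled by edgeR's TMM factors) in KO mTEChi of pools 4, 5 and 6, and at 1.96, 0.96 and 0.76 CPM in KO mTEClo. It averaged 54.2 ± 5.71 CPM in WT mTEChi and 46.4 ± 9.93 CPM in WT mTEClo (SD, n = 3 each), so all 6 KO libraries lay far below all 6 WT libraries. The table gives 1 count per gene, so the remaining reads cannot be placed on exons. Their difference between the KO fractions (log2 fold change 1.02, SE 0.36, adjusted p = 0.0271 by edgeR's quasi-likelihood test with Benjamini-Hochberg adjustment) lost its call under 8 alternative settings, with adjusted p from 0.0543 to 0.324 there.

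Libraries held between 6802970 and 13373646 counts in KO mTEChi and between 14411708 and 19356071 in KO mTEClo, against 3554089 to 8445355 in WT mTEChi and 6565309 to 9815559 in WT mTEClo. The epithelial adhesion gene Epcam (1437 ± 52.6 CPM in KO mTEChi and 1529 ± 73.3 CPM in KO mTEClo) and the keratin Krt8 (1690 ± 182 and 1815 ± 178 CPM in KO mTEChi and KO mTEClo) marked both fractions as epithelial. The cortical protease gene Prss16 averaged 177 ± 24.95 CPM in KO mTEChi and 297 ± 68.4 CPM in KO mTEClo, far below the 2078 CPM of KO cTEC. Summed markers of other cells were not equal. The 19 thymocyte genes summed to 165.2 to 192.9 CPM in KO mTEChi and 92.3 to 113.8 CPM in KO mTEClo. Of these, 6 were called higher, 1 lower and 12 not called. Tcf7 alone averaged 57.6 CPM in KO mTEChi and 7.18 CPM in KO mTEClo. Macrophage and dendritic cell genes summed to 873.0 to 1027.6 CPM in KO mTEChi and 135.8 to 162.6 CPM in KO mTEClo. Without Lyz2, which mTECs also express, the sums were 116.2 to 147.8 CPM in KO mTEChi and 49.0 to 58.2 CPM in KO mTEClo. Mural cell sums overlapped (415.2 to 482.5 and 364.9 to 505.6 CPM in KO mTEChi and KO mTEClo). Fibroblast sums were lower in KO mTEChi (248.5 to 289.6 CPM) than in KO mTEClo (400.7 to 455.0 CPM). The pan-leukocyte gene Ptprc was also lower in KO mTEChi, with 13.9 ± 1.72 CPM in KO mTEChi and 25.1 ± 1.09 CPM in KO mTEClo. Of 8 B cell, 8 fibroblast, 6 endothelial and 3 erythroid markers tested, 3, 1, 2 and 1 were called higher in KO mTEChi and 0, 4, 0 and 0 lower. Of all genes tested, 23% were called higher and 22.4% lower, and counts from lists this small say little about those cells. The 15 mitochondrial genes took 1.00 to 1.40% of the counts in KO mTEChi and 1.41 to 1.68% in KO mTEClo.

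The 2 fractions of KO mTECs differed over much of the transcriptome. Of 19364 genes tested, 4445 (23%) were higher and 4334 (22.4%) lower in KO mTEChi than in KO mTEClo at an adjusted p under 0.05, together 8779 (45.3%). At 2-fold or more the split was uneven, with 3378 genes (17.4%) higher and 1758 (9.08%) lower, and at 4-fold or more it was 2294 higher and 533 lower. Of the 8779 genes called, 8674 moved in the direction of the call in all 3 pools. Of all 19364 genes tested, 14069 had the 3 pools in 1 direction, and the calls rest on these same libraries. The 23% higher and 22.4% lower of all genes are the shares to set beside the calls of each list below. The libraries of 11135 genes (57.5%) did not overlap between the fractions, among them 8461 of the genes called. The median log2 fold change over all genes tested was -0.05 and the interquartile range 1.19. At an equal depth of 6802970 reads, genes with at least 5 reads numbered 17337, 17406 and 17299 in KO mTEChi of pools 4, 5 and 6, against 16294, 16199 and 16183 in KO mTEClo. The difference of 1121.7 genes exceeded the spread among libraries (SD 54.4 in KO mTEChi and 60.1 in KO mTEClo), and the exact two-sided permutation test gave p = 0.1, the smallest that 3 against 3 libraries allow.

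Genes of mitosis rose together in KO mTEChi. All 20 of the 20 listed genes of G2 and mitosis were called higher, where 23% of all genes were, and all 20 had libraries that did not overlap, where 57.5% of all genes had none. Their median log2 fold change was 2.05 (SD of the pool medians 0.10), against -0.05 over all genes tested, and their summed level was 614.2 to 810.0 CPM in KO mTEChi and 141.4 to 203.6 CPM in KO mTEClo. In bulk libraries, fewer cells of a type and less RNA per cell cannot be told apart. The fold changes ran from 1.51 for Cenpe, a kinesin of the kinetochore, to 2.71 for Ccnb1, the cyclin that drives entry into mitosis.

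Cdk1, the kinase of mitotic entry, was at 67.1, 65.4 and 50.2 CPM in KO mTEChi of pools 4, 5 and 6, against 14.1, 11.5 and 6.68 CPM in KO mTEClo (log2 fold change 2.51, SE 0.24, adjusted p = 6.62e-08). Ube2c, the ubiquitin-conjugating enzyme of the anaphase-promoting complex, was at 49.0, 56.6 and 48.3 CPM in KO mTEChi, against 8.72, 10.1 and 5.25 CPM in KO mTEClo (2.68, SE 0.24, adjusted p = 1.97e-08). Top2a, the topoisomerase that untangles sister chromatids, was at 68.0, 81.4 and 50.5 CPM in KO mTEChi, against 18.7, 17.1 and 13.1 CPM in KO mTEClo (2.04, SE 0.22, adjusted p = 2.46e-07). For all 3 genes the lowest KO mTEChi library, that of pool 6, was above the highest KO mTEClo library, and in KO mTEClo pool 6 was lowest too. The proliferation marker Mki67 averaged 42.5 ± 8.04 CPM in KO mTEChi and 14.8 ± 3.12 CPM in KO mTEClo.

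The 200 bases before the RefSeq start sites of these 3 genes (GRCm38.p6, printed along the strand of the gene) are shown because the listed mitotic genes share short elements there: Cdk1 at chr10:69352913-69353112 (minus strand), Ube2c at chr2:164769729-164769928 (plus strand) and Top2a at chr11:99024190-99024389 (minus strand). Capitals mark CCAAT or its complement ATTGG, the box bound by NF-Y, and TTTGAA or its complement TTCAAA, the core of the element through which the DREAM complex represses cell cycle genes outside G2 and mitosis.
Cdk1: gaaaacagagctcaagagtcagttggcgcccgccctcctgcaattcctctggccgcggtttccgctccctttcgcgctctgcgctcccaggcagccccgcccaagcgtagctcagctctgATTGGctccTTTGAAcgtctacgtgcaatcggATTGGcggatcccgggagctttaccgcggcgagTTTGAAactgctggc
Ube2c: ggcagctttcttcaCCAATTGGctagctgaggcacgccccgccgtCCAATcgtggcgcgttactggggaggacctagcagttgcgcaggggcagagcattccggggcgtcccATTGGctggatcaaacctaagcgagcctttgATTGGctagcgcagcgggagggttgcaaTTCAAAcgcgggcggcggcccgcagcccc
Top2a: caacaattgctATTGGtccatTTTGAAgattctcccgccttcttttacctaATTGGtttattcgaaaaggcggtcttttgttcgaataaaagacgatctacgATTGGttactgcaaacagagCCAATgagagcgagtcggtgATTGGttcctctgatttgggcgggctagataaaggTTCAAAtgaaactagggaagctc
The element TTTGAA or TTCAAA starts 71 and 15 bases before the start of Cdk1, 29 bases before that of Ube2c and 179 and 23 bases before that of Top2a. In Ube2c the 2 outermost boxes, which start 186 and 183 bases before the start, overlap. In windows from 250 bases before to 50 bases after the start, searched on both strands, CCAAT was present in 14 of 16 windows of the mitotic list (87.5%, against 37.4% of all 32851 RefSeq windows) and TTTGAA in 11 of 16 (68.8%, against 17.9%). All 11 windows with TTTGAA also held CCAAT, a pair found in 6.95% of all windows. A match in these letters is a description of the sequence and does not show that a factor binds there.

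Genes of DNA replication rose less uniformly. Of 20 listed genes, 14 were called higher and 0 lower, where 23% and 22.4% of all genes were, with a median log2 fold change of 0.81 (SD of the pool medians 0.07). Rrm2, the regulated subunit of ribonucleotide reductase, rose most (41.5 ± 10.1 CPM in KO mTEChi and 7.92 ± 1.05 CPM in KO mTEClo; log2 fold change 2.40, adjusted p = 5.96e-08). Mcm3, a subunit of the replicative helicase, averaged 49.4 ± 4.52 CPM in KO mTEChi and 14.9 ± 2.19 CPM in KO mTEClo (1.73, adjusted p = 2.14e-06). The sliding clamp gene Pcna (0.22, adjusted p = 0.117) and Rrm1, the large subunit of ribonucleotide reductase (-0.28, adjusted p = 0.34), did not pass the test. In the promoter windows of this list CCAAT was in 13 of 18 (72.2%) and TTTGAA in 2 of 18 (11.1%).

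Regulators of mTEC maturation were mostly higher in KO mTEChi: 9 of 12 were called higher and 2 lower, with a median log2 fold change of 1.17 (SD of the pool medians 0.14). Aire, at chr10:78030022-78043610, was at 693, 633 and 703 CPM in KO mTEChi of pools 4, 5 and 6, against 55.1, 37.96 and 24.8 CPM in KO mTEClo (log2 fold change 4.11, SE 0.36, adjusted p = 1.48e-08). Fezf2, a second regulator of self-antigen expression, was at 421, 478 and 469.9 CPM in KO mTEChi, against 137, 139 and 125 CPM in KO mTEClo (1.77, SE 0.15, adjusted p = 8.25e-09). The KO mTEChi libraries lay close together for both genes. Relative to its mean, Aire varied more in KO mTEClo, with pool 4 above pools 5 and 6. The 2 members called lower were Hipk2, a kinase that binds AIRE (-0.61, adjusted p = 0.000644), and Ehf, an epithelial ETS factor (-0.47, adjusted p = 0.0131) and 1 of the 2 calls was lost without the KO mTEClo library of pool 6 and without either pool 5 or pool 6. Prdm1, which encodes BLIMP1, had 8.40 ± 1.77 CPM in KO mTEChi and 7.96 ± 1.84 CPM in KO mTEClo.

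The stretch of 200 bases before the RefSeq start of Aire (GRCm38.p6, chr10:78043611-78043810, minus strand) is shown because it holds a TATAAA element, in capitals, which starts 29 bases before the start site.
Aire: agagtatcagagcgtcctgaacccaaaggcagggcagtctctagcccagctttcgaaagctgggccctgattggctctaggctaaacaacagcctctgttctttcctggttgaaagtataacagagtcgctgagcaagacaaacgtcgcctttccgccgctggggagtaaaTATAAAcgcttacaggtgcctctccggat
TATAAA between 45 and 20 bases before the start on the strand of the gene was found in 2.14% of all RefSeq windows.

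The receptors and NF-kB components that mature mTECs followed the same direction, with 12 of 17 called higher and 2 lower and a median log2 fold change of 1.10 (SD of the pool medians 0.10). Tnfrsf11a, which encodes RANK, averaged 384 ± 33.9 CPM in KO mTEChi and 137 ± 9.43 CPM in KO mTEClo (1.49, SE 0.11, adjusted p = 2.64e-09). Cd40 averaged 324 ± 9.45 CPM in KO mTEChi and 50.2 ± 11.5 CPM in KO mTEClo (2.69, SE 0.15, adjusted p = 6.85e-11). Tnfrsf11b, the gene of the decoy receptor osteoprotegerin, rose most in the list, to 316 ± 4.01 CPM in KO mTEChi, against 28.7 ± 8.54 CPM in KO mTEClo (3.47, SE 0.22, adjusted p = 2.98e-10). The noncanonical subunits Relb (1.15) and Nfkb2 (1.18) rose, whereas the canonical subunits Rela (-0.14, adjusted p = 0.399) and Nfkb1 (0.10, adjusted p = 0.488) did not pass the test. Ltbr, the lymphotoxin beta receptor gene, fell (-0.63, adjusted p = 9.6e-05), as did Tnfaip3, which encodes the NF-kB inhibitor A20 (-0.53, adjusted p = 0.0125). Of these 2 calls, 1 was lost without the KO mTEChi library of pool 5 and without either pool 5 or pool 6.

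Costimulatory ligands were among the genes that separated the fractions most: 10 of 14 listed genes were called higher and 2 lower, with a median log2 fold change of 2.30 (SD of the pool medians 0.11). Cd80, a ligand of CD28 that is used as a marker of mature mTECs, was at 62.5, 68.2 and 48.1 CPM in KO mTEChi of pools 4, 5 and 6, against 10.3, 11.3 and 10.4 CPM in KO mTEClo (2.48, SE 0.16, adjusted p = 3.17e-10). Icosl, the ICOS ligand gene, averaged 459 ± 17.3 CPM in KO mTEChi and 84.4 ± 11.6 CPM in KO mTEClo (2.44), and Tnfsf9, which encodes 4-1BB ligand, 74.3 ± 6.37 and 5.72 ± 1.32 CPM in KO mTEChi and KO mTEClo (3.71). No KO mTEClo library reached a KO mTEChi library for these genes. The second CD28 ligand gene Cd86 (3.93) and the CD27 ligand gene Cd70 (4.32) rose further. Cd274, which encodes PD-L1, rose by less (0.89, adjusted p = 2.3e-05). Cd200, an inhibitory ligand gene (-1.16, adjusted p = 0.000385), and Lgals9, which encodes galectin-9 (-0.52, adjusted p = 0.0186), fell. Of these 2 calls, 1 was lost under DESeq2's scaling and without the KO mTEChi library of pool 5 or 6, the KO mTEClo library of pool 4, or the whole of pool 5 or 6.

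Chemokine genes moved in both directions. Of 16 listed genes, 11 were called higher and 4 lower, where 23% and 22.4% of all genes were. The median log2 fold change was 2.14 (SD of the pool medians 0.48). For all 16 the libraries did not overlap, as held for 57.5% of all genes. Ccl22, a ligand of CCR4, which draws thymocytes and T cells, was at 55.7, 63.5 and 44.5 CPM in KO mTEChi of pools 4, 5 and 6, against 2.16, 1.58 and 0.71 CPM in KO mTEClo (5.24, SE 0.30, adjusted p = 5.65e-11). Ccl25, the CCR9 ligand gene that guides thymocyte progenitors, averaged 1531 ± 97.4 CPM in KO mTEChi and 363 ± 32.4 CPM in KO mTEClo (2.08, adjusted p = 5.46e-08). The interferon-inducible chemokine genes Cxcl9 (2.23) and Cxcl10 (1.27) rose as well. Ccl21a, the CCR7 ligand gene of immature mTECs, was at 66.2, 91.7 and 98.2 CPM in KO mTEChi, against 303, 692 and 549 CPM in KO mTEClo (-2.59, SE 0.32, adjusted p = 1.83e-06). Its KO mTEClo libraries differed among themselves, with pool 4 far below pool 5, and its reads may be shared with near-identical Ccl21 copies. Cxcl12, the CXCR4 ligand gene of the cortex, fell to 66.9 ± 3.70 CPM in KO mTEChi, against 259 ± 16.5 CPM in KO mTEClo and 1351 CPM in KO cTEC (-1.95, adjusted p = 3.25e-10).

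MHC class II genes bear on the sort itself, since surface MHC class II set the gate, and their direction is no independent result. H2-Aa averaged 5025 CPM in KO mTEChi and 1420.0 CPM in KO mTEClo, and the invariant chain gene Cd74 29113 CPM in KO mTEChi and 7885 CPM in KO mTEClo. Of 16 listed genes of that pathway 13 were called higher and 2 lower. Among 15 genes of the MHC class I pathway, which the gate did not use, 9 were called higher and 0 lower, with a smaller median log2 fold change of 0.43 (SD of the pool medians 0.06).

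**Figure D1:**
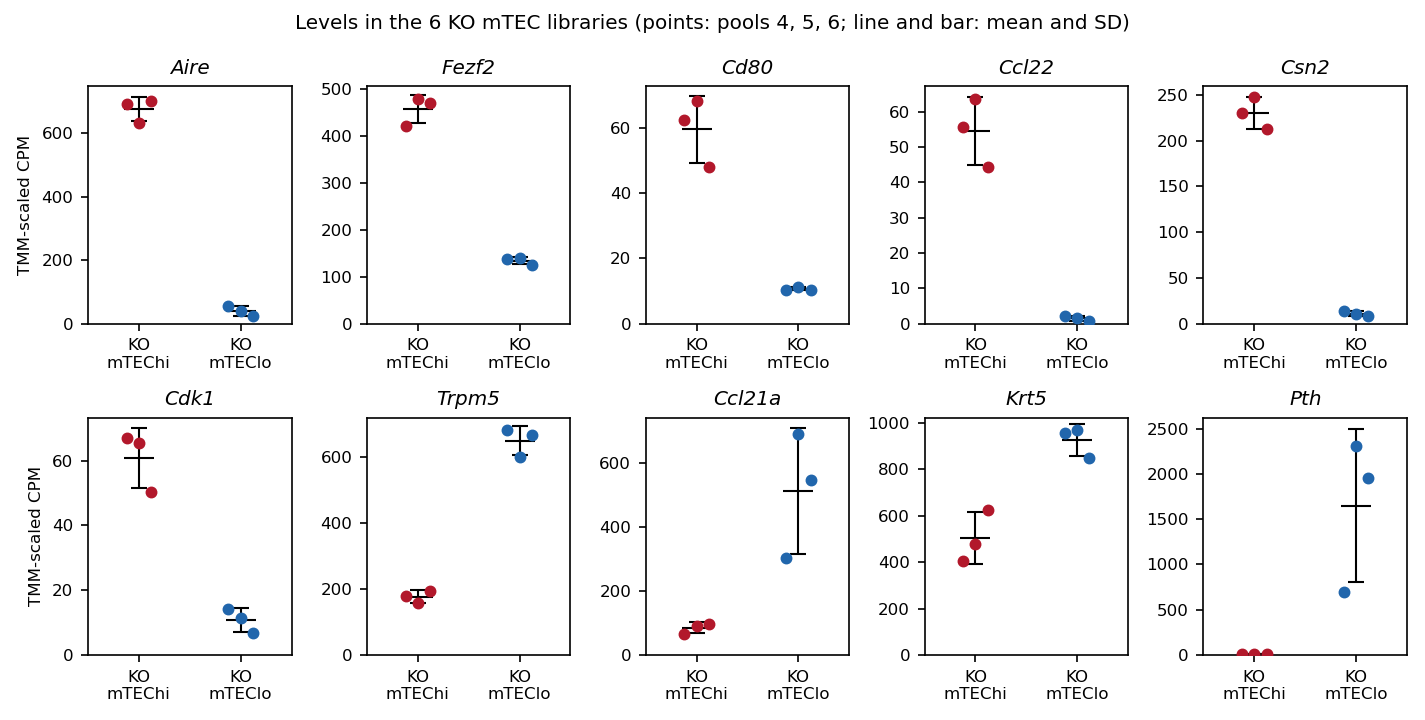
TMM-scaled CPM (linear axis) of 10 genes in each KO library, KO mTEChi on the left and KO mTEClo on the right of each panel, with the mean and SD of the 3 pools. Aire, Fezf2, Cd80, Ccl22, Csn2 and Cdk1 lie higher in every KO mTEChi library (Aire 633 to 703 CPM against 24.8 to 55.1 CPM in KO mTEClo), and Trpm5, Ccl21a, Krt5 and Pth lie lower in every KO mTEChi library (Pth 8.49 to 15.9 CPM against 692 to 2306 CPM in KO mTEClo).

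Genes of other organs, the self-antigens that mTECs present, had a positive median log2 fold change in every organ list. Summed levels did not always follow. Endocrine genes summed to 217.1 to 235.0 CPM in KO mTEChi and 722.9 to 2344.6 CPM in KO mTEClo, where Pth alone had 692 to 2306 CPM. Kidney and lung genes summed to 321.7 to 516.5 CPM in KO mTEChi and 539.8 to 583.4 CPM in KO mTEClo. Over all organ lists, 207 of 233 listed genes had enough reads to be tested, and 131 of these were called higher and 11 lower, with a median log2 fold change of 2.59, against -0.05 over all genes tested. A gene read only in KO mTEChi passes the filter on low counts through that fraction, so the counts describe the genes that passed and not all 233. With the 19 genes that had no read in KO mTEClo set at their bound (3 reads over the group), the median was 2.48. By organ, the median was 4.42 for 15 mammary gland and egg genes (3.22 with bounds; 12 higher, 0 lower), 3.46 for 23 endocrine genes (17 higher, 2 lower), 3.08 for 23 pancreas genes (2.69 with bounds; 16 higher, 1 lower) and 3.83 for 19 genes of salivary, lacrimal and male glands (2.72 with bounds; 13 higher, 2 lower). It was lower for 24 brain and nerve genes (0.56; 11 higher, 1 lower), 24 liver genes (1.80; 15 higher, 2 lower) 15 eye genes (1.13; 7 higher, 1 lower) and 26 stomach and intestine genes (1.88; 15 higher, 0 lower). For 13 testis genes it was 2.52 (2.27 with bounds; 8 higher, 1 lower), for 13 kidney and lung genes 2.74 (10 higher, 1 lower) and for 12 heart genes 2.62 (2.34 with bounds; 7 higher, 0 lower). The count of 13 for salivary and related glands was 8 when only the groups compared entered the fit, the 10 kidney and lung genes higher became 6 without pool 5 or without pool 6. The 8 testis genes higher became 5 without pool 5. The 2 lower calls of the liver list became 1 without any of 5 of the 6 KO libraries, and those of the salivary list became 1 without the KO mTEChi library of pool 4 or the KO mTEClo library of pool 6.

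Csn2, the beta-casein gene of the mammary gland, was at 231, 248 and 213 CPM in KO mTEChi of pools 4, 5 and 6, against 13.99, 10.1 and 8.31 CPM in KO mTEClo (4.42, SE 0.27, adjusted p = 1.66e-10). Calca, which encodes calcitonin, averaged 95.3 ± 2.68 CPM in KO mTEChi and 6.25 ± 2.96 CPM in KO mTEClo (3.93, adjusted p = 8.93e-09), and Pomc, the pituitary prohormone gene, 25.1 ± 3.08 and 1.15 ± 0.24 CPM in KO mTEChi and KO mTEClo (4.43, adjusted p = 6.37e-08). Fgg, the fibrinogen gamma chain gene of the liver, averaged 9.63 ± 0.56 CPM in KO mTEChi and 0.40 ± 0.19 CPM in KO mTEClo (4.60, adjusted p = 1.26e-08). All of these are genes whose KO mTEChi libraries all lay above their KO mTEClo libraries. Some organ genes had no read in any KO mTEClo library: Atp4b, the beta subunit of the gastric proton pump, had 74 reads in KO mTEChi and was at least 45.4-fold higher, Oosp1, an oocyte gene, at least 25.2-fold, and Pnlip, pancreatic lipase, at least 16.0-fold. The neuropeptide gene Vip had 129 reads in KO mTEChi and 1 in KO mTEClo, a ratio of 237 with an exact 95% counting interval from 41.9 to 9449, and Csn1s2a, another casein gene, had 210 and 3 reads in KO mTEChi and KO mTEClo, a ratio of 129 (43.5 to 629.7). These intervals and bounds cover counting error only.

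The largest increases among genes with a mean of at least 5 CPM included several secreted signals. Ppy, the pancreatic polypeptide gene (chr11:102099931-102101319), was at 4.54, 14.7 and 13.3 CPM in KO mTEChi of pools 4, 5 and 6, against 0.20, 0 and 0 CPM in KO mTEClo. It had 321 reads in KO mTEChi and 3 in KO mTEClo, a ratio of 197 (66.8 to 960.0). Il13, a cytokine gene of type 2 immunity (chr11:53631323-53634702), was at 8.96, 15.4 and 20.6 CPM in KO mTEChi, against 0.07, 0.06 and 0.15 CPM in KO mTEClo (log2 fold change 7.15, SE 0.66, adjusted p = 9.22e-08), from 418 and 5 reads in KO mTEChi and KO mTEClo. Both were nearly unread in KO mTEClo and varied among the KO mTEChi pools, with pool 4 lowest. Ido1, which encodes a tryptophan-degrading enzyme, was at 20.6, 15.0 and 13.1 CPM in KO mTEChi, against 0.20, 0.11 and 0.05 CPM in KO mTEClo (7.01, SE 0.57, adjusted p = 5.56e-09). Napsa, an aspartic protease gene of lung and kidney, was at 40.6, 32.8 and 24.3 CPM in KO mTEChi, against 0.88, 0.28 and 0.25 CPM in KO mTEClo (6.16, SE 0.46, adjusted p = 2.28e-09). The other 8 were Apol11a, Lefty2, Ighg3, Pde6h, Madcam1, Gpx6, Pgc and Npy, with log2 fold changes from 5.87 to 6.57; reads of Apol11a and Ighg3 may be shared with close relatives.

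The 200 bases before the RefSeq starts of Ppy (GRCm38.p6, chr11:102101320-102101519, minus strand) and Il13 (chr11:53634703-53634902, minus strand) are shown as examples of a promoter type that was more frequent among the organ genes. Capitals mark TATAAA, which starts 31 bases before the start of Ppy and 29 bases before that of Il13.
Ppy: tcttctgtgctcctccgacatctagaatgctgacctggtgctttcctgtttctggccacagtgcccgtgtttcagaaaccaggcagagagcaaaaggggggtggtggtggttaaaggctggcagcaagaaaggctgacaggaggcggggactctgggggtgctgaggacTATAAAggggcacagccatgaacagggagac
Il13: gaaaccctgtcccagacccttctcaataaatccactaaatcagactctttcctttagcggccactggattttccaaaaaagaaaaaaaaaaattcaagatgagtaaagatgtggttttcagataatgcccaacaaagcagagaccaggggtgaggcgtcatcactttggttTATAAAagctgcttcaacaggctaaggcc
Among the organ genes tested, 32 of 184 windows (17.4%, from 164 genes) held TATAAA at that distance, against 2.14% of all RefSeq windows.

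The direction was not shared by every organ gene. Ambp, a liver gene for a secreted protease inhibitor, was at 5.98, 9.03 and 4.42 CPM in KO mTEChi of pools 4, 5 and 6, against 68.3, 85.5 and 67.3 CPM in KO mTEClo (-3.47, SE 0.41, adjusted p = 1.06e-06). Nefl, the neurofilament light chain gene, fell to 22.5 ± 2.30 CPM in KO mTEChi, against 143 ± 7.21 CPM in KO mTEClo (-2.67, adjusted p = 7.67e-10). Both sets of libraries were well apart. For other listed genes the libraries of the fractions overlapped, such as the mucus protein gene Fcgbp (2606 ± 435 CPM in KO mTEChi and 2457 ± 531 CPM in KO mTEClo) and the islet hormone gene Iapp (14.9 ± 1.86 and 13.7 ± 2.19 CPM in KO mTEChi and KO mTEClo). The summed thymocyte markers, of which 6 of 19 were called higher and 1 lower, were also higher in KO mTEChi. So were 11 of 16 macrophage and dendritic cell genes, and the part of both in these results was not tested.

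Lists of mTECs that resemble other cell types moved in both directions. Of 17 genes of enterocytes and hepatocytes, 11 were called higher and 0 lower (median log2 fold change 1.91, SD of the pool medians 0.22). Cdx1, an intestinal homeobox gene, was at 443, 371 and 392 CPM in KO mTEChi of pools 4, 5 and 6, against 101, 82.9 and 72.1 CPM in KO mTEClo (2.24, SE 0.17, adjusted p = 1.84e-09). Lypd8, which encodes a protein of the colonic lining, averaged 180.0 ± 6.29 CPM in KO mTEChi and 27.2 ± 2.48 CPM in KO mTEClo (2.73, adjusted p = 1.44e-06). The brush border gene Vil1 was at 15.0 ± 2.72 and 18.1 ± 1.74 CPM in KO mTEChi and KO mTEClo, and its libraries overlapped. Of 17 muscle genes 10 were called higher and 1 lower (median 1.38, SD 0.20). Myog, a factor of muscle differentiation, was at 53.4, 33.4 and 52.1 CPM in KO mTEChi, against 15.8, 15.0 and 14.2 CPM in KO mTEClo (1.62, SE 0.20, adjusted p = 1.6e-06). Myod1, the muscle determination factor, had 33 reads in KO mTEChi and none in KO mTEClo, at least 20.2-fold higher. The intermediate filament gene Des, also expressed in mural cells, rose to 94.9 ± 4.95 CPM in KO mTEChi, against 14.5 ± 2.66 CPM in KO mTEClo (2.71, adjusted p = 2.28e-09), and of 8 mural cell markers 3 were called higher and 3 lower. The single lower call, the actin gene Acta1, was lost under 10 of the alternatives.

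Among 12 genes of microfold cells, the antigen-sampling cells of gut epithelium, 9 were called higher and 1 lower (median 0.90, SD 0.16). The gene lower was Gp2, the microfold cell receptor gene for bacteria, at 113, 77.4 and 77.4 CPM in KO mTEChi of pools 4, 5 and 6, against 291, 511 and 488 CPM in KO mTEClo (-2.27, SE 0.28, adjusted p = 1.72e-06) and 860.0 CPM in KO cTEC. The genes higher included the chemokine gene Ccl9 (97.7 ± 8.03 CPM in KO mTEChi and 25.5 ± 3.55 CPM in KO mTEClo; 1.94, adjusted p = 8.51e-10) and Marcksl1 (0.96, adjusted p = 7.99e-08). Several list members, among them Tnfrsf11b, Ccl20 and Spib, also stand in the lists of maturation genes or chemokines, and Aif1 is also a macrophage gene. The single lower call was joined by another under the replicate block. Of 18 ciliated cell genes 4 were called higher and 5 lower (median -0.47, SD 0.16), shares near the 23% higher and 22.4% lower of all genes. The 4 included Gmnc, a regulator of multiciliated cells (3.47, adjusted p = 0.000141), and the 5 lower calls became 3 without the KO mTEChi library of pool 5 or of pool 6 and without any 1 whole pool, and the 4 became 2 without pool 5. Of 10 ionocyte genes 2 were called higher and 2 lower, and those counts ran from 1 to 4 higher and from 0 to 2 lower over the alternatives.

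**Figure D2:**
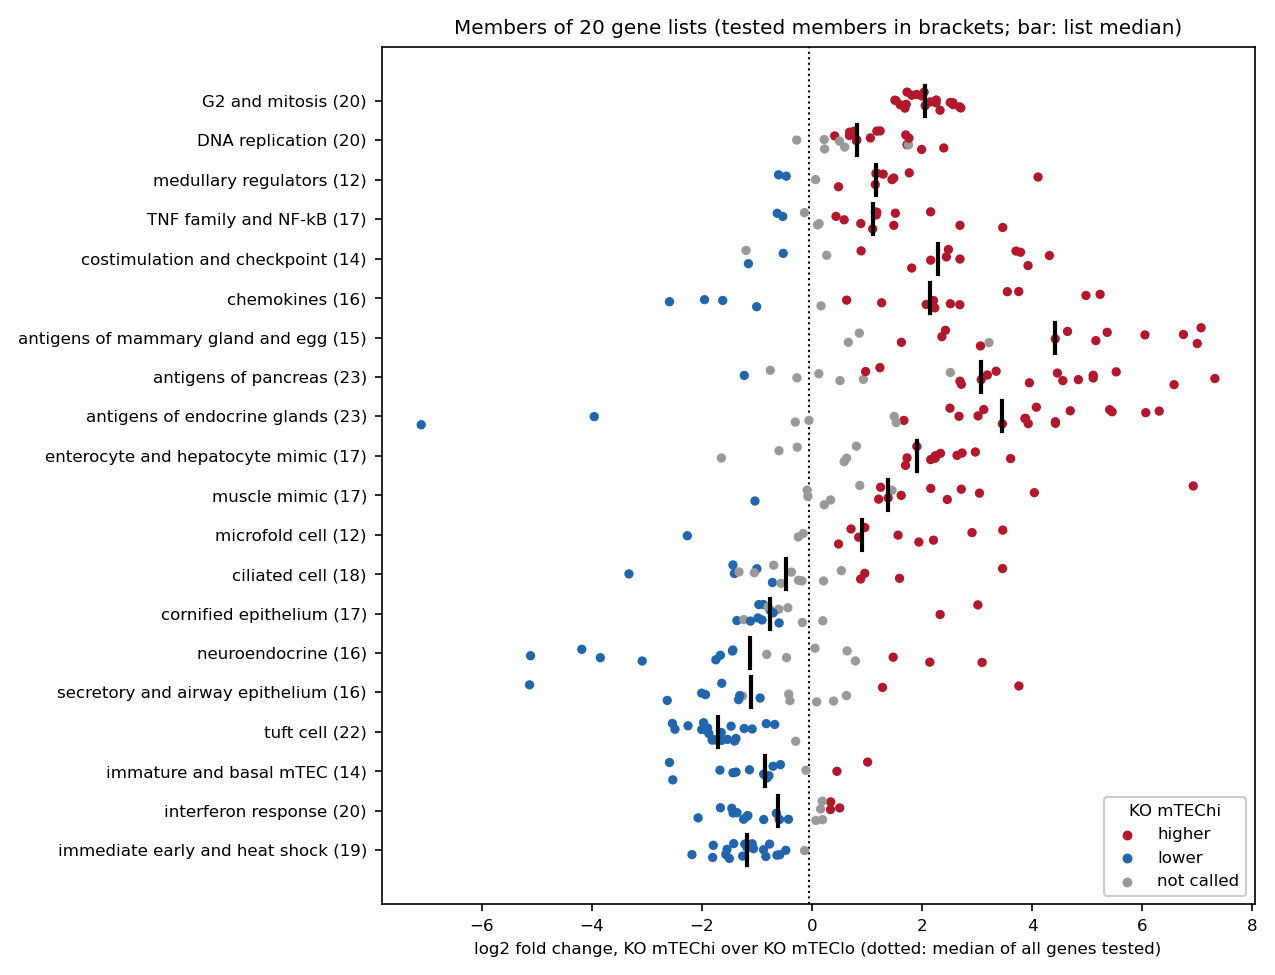
Log2 fold change of KO mTEChi over KO mTEClo for each gene of 20 lists, 1 point per gene, red for genes called higher, blue for genes called lower and grey for genes not called, with a bar at the median of the list and a dotted line at the median of all genes tested (-0.05). All 20 G2 and mitosis genes are red and 21 of 22 tuft cell genes are blue.

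Tuft cell genes were the most uniform group among those lower in KO mTEChi. Of 22 listed genes 21 were called lower and 0 higher, where 22.4% of all genes were lower, with a median log2 fold change of -1.70 (SD of the pool medians 0.09). Their summed level was 2228 to 2424 CPM in KO mTEChi and 7257 to 7583 CPM in KO mTEClo. Trpm5, the cation channel of taste and tuft cell signalling, was at 180.1, 158.0 and 194.6 CPM in KO mTEChi of pools 4, 5 and 6, against 683, 602 and 668 CPM in KO mTEClo (-1.88, SE 0.21, adjusted p = 4.32e-07). Dclk1, a kinase used as a tuft cell marker, fell to 92.2 ± 7.89 CPM in KO mTEChi, against 534.9 ± 29.0 CPM in KO mTEClo (-2.54, SE 0.18, adjusted p = 1.07e-09). Alox5ap, needed for leukotriene synthesis, averaged 33.4 ± 1.47 CPM in KO mTEChi and 159.7 ± 16.9 CPM in KO mTEClo (-2.25, adjusted p = 5.29e-09). Pou2f3, the factor that specifies tuft cells, fell by less, to 127 ± 1.81 CPM in KO mTEChi, against 204 ± 3.40 CPM in KO mTEClo (-0.68, SE 0.19, adjusted p = 0.0055). The effector cytokine gene Il25 fell too (-1.82, adjusted p = 0.000205). Gfi1b, a repressor expressed in tuft cells, was the member that did not pass (-0.30, adjusted p = 0.446), and its libraries overlapped.

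Genes of immature and basal mTECs were lower in KO mTEChi for 11 of 14 members and higher for 2 (median -0.85, SD of the pool medians 0.18). The basal keratin gene Krt5 was at 407, 479 and 625 CPM in KO mTEChi of pools 4, 5 and 6, against 957, 971 and 848 CPM in KO mTEClo (-0.88, SE 0.16, adjusted p = 0.00014). The gap between the fractions was narrowest in pool 6. Krt14, its partner keratin, averaged 1087 ± 102 CPM in KO mTEChi and 1775 ± 161 CPM in KO mTEClo (-0.71, adjusted p = 2.9e-05), and Pdpn, which encodes podoplanin of junctional mTECs, 19.6 ± 2.83 and 63.0 ± 2.38 CPM in KO mTEChi and KO mTEClo (-1.67, adjusted p = 1.6e-08). The basement membrane laminin genes Lamb3 (-1.44) and Lama3 (-1.14) fell with them. Krt15, a keratin of basal progenitors, averaged 11.9 ± 1.68 CPM in KO mTEChi and 68.2 ± 5.74 CPM in KO mTEClo (-2.53, SE 0.34, adjusted p = 4.12e-06). Of the 2 calls in the other direction, 1 was lost without pool 6. Against the direction of the list, Col17a1, a hemidesmosome gene, rose (1.01, adjusted p = 0.000228).

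Genes of endocrine and secretory cells included some of the largest decreases among called genes with a mean of at least 5 CPM and no overlap. Pth, the parathyroid hormone gene (chr7:113385576-113388672), was at 8.49, 15.9 and 10.8 CPM in KO mTEChi of pools 4, 5 and 6, against 692, 2306 and 1951 CPM in KO mTEClo (-7.11, SE 0.92, adjusted p = 2.9e-06), and it averaged 943 CPM in KO cTEC. Gcm2, the factor that specifies the parathyroid, was at 0.12, 0.68 and 0.59 CPM in KO mTEChi, against 3.79, 7.83 and 11.2 CPM in KO mTEClo (-3.96, SE 0.78, adjusted p = 0.000343). Casr, the calcium-sensing receptor gene, had 7.34 ± 1.64 and 8.97 ± 0.91 CPM in KO mTEChi and KO mTEClo. Chga, which encodes chromogranin A of secretory granules (chr12:102554941-102565027), was at 61.3, 38.03 and 35.9 CPM in KO mTEChi, against 1048, 1917 and 1727 CPM in KO mTEClo (-5.12, SE 0.48, adjusted p = 3.87e-08) and 817 CPM in KO cTEC. Pth and Chga were both lowest in pool 4 among the KO mTEClo libraries. The thymus shares its embryonic origin with the parathyroid, and whether parathyroid tissue was in the sorted samples was not tested.

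Over the neuroendocrine list 8 of 16 genes were called lower and 3 higher (median -1.13, SD of the pool medians 0.15). Of all genes tested, 22.4% were lower and 23% higher, the shares to set beside each list of this paragraph. The 3 of 16 neuroendocrine genes higher stood below that 23%. Chgb, a second granin gene, fell to 7.12 ± 1.97 CPM in KO mTEChi, against 61.01 ± 17.8 CPM in KO mTEClo (-3.09, adjusted p = 6.71e-08). Rfx6, a factor of islet cell development, was at 0.36, 0.30 and 1.33 CPM in KO mTEChi of pools 4, 5 and 6, against 9.94, 11.4 and 11.5 CPM in KO mTEClo (-4.19, SE 0.60, adjusted p = 9.37e-06). The 3 genes that rose were Insm1, a zinc finger factor of neuroendocrine cells (129 ± 20.6 CPM in KO mTEChi and 46.3 ± 1.73 CPM in KO mTEClo; 1.48), Resp18, a granule protein gene (2.14), and Fev, a factor of serotonergic cells (3.09). Secretory and airway genes fell for 8 of 16 members and rose for 2 (median -1.10, SD 0.43), with 5 lower without pool 5 and 4 higher without the KO mTEChi library of pool 4. Muc5b, the gel-forming airway mucin gene, was at 1.91, 1.21 and 3.68 CPM in KO mTEChi, against 47.3, 113 and 59.8 CPM in KO mTEClo (-5.14, SE 0.47, adjusted p = 3.25e-08). Spdef, a factor of goblet cells, fell to 4.99 ± 1.24 CPM in KO mTEChi, against 19.7 ± 1.02 CPM in KO mTEClo (-2.01, adjusted p = 1.15e-05). Sftpd, a lung collectin gene (1.28), and Bpifb1, an airway secretory gene (3.76), rose. Genes of the cornified layer fell for 9 of 17 members and rose for 2 (median -0.76, SD 0.25), with 5 lower without the KO mTEChi library of pool 4 or the KO mTEClo library of pool 6. Ivl, which encodes involucrin, averaged 14.7 ± 3.59 CPM in KO mTEChi and 37.9 ± 2.38 CPM in KO mTEClo (-1.37, adjusted p = 0.00347).

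Among the 12 largest of these decreases, Pth, Muc5b, Chga and Rfx6 are described above. Igfbp3, a secreted binding protein of insulin-like growth factors (chr11:7206086-7215498), was at 17.8, 19.0 and 13.4 CPM in KO mTEChi of pools 4, 5 and 6, against 284, 225 and 269 CPM in KO mTEClo (-3.94, SE 0.22, adjusted p = 4.25e-11). Pmp22, a membrane protein gene best known from myelin, was at 5.14, 8.501 and 7.51 CPM in KO mTEChi, against 139, 148 and 143 CPM in KO mTEClo (-4.33, SE 0.19, adjusted p = 4.78e-12) and 421 CPM in KO cTEC. The libraries of each fraction were tight and far apart for both genes. The rest were Scarf2, Ehd2, Fmod, Kl, Sparcl1 and Slc38a11, with log2 fold changes from -4.33 to -3.77. The 200 bases before the RefSeq start used for Igfbp3 (GRCm38.p6, chr11:7213924-7214123, minus strand) are shown with CG in capitals, as an example of a CG-rich promoter. That start lies inside the gene span given above and not at its upstream end. The median count of CG in windows of 300 bases was 19 for genes lower in KO mTEChi, 18 for genes not called and 8 for genes higher. For genes lower by 4-fold or more, Igfbp3 among them, it was 9, so its window is not typical of that group.
Igfbp3: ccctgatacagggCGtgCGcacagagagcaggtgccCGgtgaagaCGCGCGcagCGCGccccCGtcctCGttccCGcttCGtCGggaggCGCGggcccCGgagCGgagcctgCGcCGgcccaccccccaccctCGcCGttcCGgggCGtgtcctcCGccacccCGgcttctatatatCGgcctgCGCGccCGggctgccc
This stretch holds 29 CG pairs, and the full window up to 50 bases after the start holds 37.

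Interferon response genes were lower in KO mTEChi for 13 of 20 members and higher for 3 (median -0.62, SD of the pool medians 0.04). Ifi44 fell to 46.2 ± 7.33 CPM in KO mTEChi, against 194 ± 12.6 CPM in KO mTEClo (-2.07, SE 0.14, adjusted p = 4.52e-10), and Ddx58, which encodes the RNA sensor RIG-I, to 63.4 ± 2.58 CPM in KO mTEChi, against 150.1 ± 9.32 CPM in KO mTEClo (-1.24, SE 0.10, adjusted p = 4.89e-09). Stat2 (-1.44) and Irf7 (-1.46), factors of the interferon pathway, fell too. The 3 higher calls, Usp18, Irf1 and Ifit1, ranged from 0.34 to 0.50, and the count was 1 when any of 4 single libraries was left out, the KO mTEChi libraries of pools 4 and 5 and the KO mTEClo libraries of pools 5 and 6, and 5 in a fit of the 6 KO libraries with the replicate block. Immediate early and heat shock genes, which respond within minutes to stimulation or to handling of cells, were lower for 18 of 19 members and higher for 0 (median -1.18, SD 0.13). Fos was at 742, 696 and 1001 CPM in KO mTEChi of pools 4, 5 and 6, against 2039, 2512 and 2359 CPM in KO mTEClo (-1.50, SE 0.21, adjusted p = 7.87e-06). The list summed to 6607 to 9266 CPM in KO mTEChi and 14460 to 15992 CPM in KO mTEClo, with no overlap between the fractions, and its part in the other results was not tested. Reads of Hspa1a and Hspa1b in that list may be shared between the 2 near-identical genes.

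Among patterning genes of the thymic epithelium, Pax1 (70.0 ± 5.84 CPM in KO mTEChi and 187 ± 5.74 CPM in KO mTEClo; -1.42, adjusted p = 6.08e-09), Pax9 (-1.54) and Hoxa3 (-3.03, adjusted p = 2.52e-07) fell, and Foxn1, the master regulator of the lineage, rose slightly (286 ± 36.0 and 192 ± 36.0 CPM in KO mTEChi and KO mTEClo; 0.57, adjusted p = 0.00794). The 14 genes of this list had 3 higher and 7 lower calls (median -0.29, SD of the pool medians 0.15), and the 3 higher calls became 0 without pool 6. Of 14 cortical TEC genes 7 were called higher and 4 lower (median 0.46, SD 0.26). Of 16 partner proteins of AIRE, 2 were called higher and 4 lower, and 4 were higher in a fit of the 6 KO libraries with the replicate block. Over all genes tested, 23% were higher and 22.4% lower. The shares of the AIRE partners were near or below these. In the next list the share lower was above 22.4% and the share higher below 23%. Sirt1, the deacetylase that acts on AIRE, rose to 137 CPM in KO mTEChi, against 31.7 CPM in KO mTEClo (2.12). Of 18 genes of KAT7 complexes and other acetyltransferases, 3 were called higher, among them Kat7 itself and the scaffold gene Jade1 (0.59), and 6 lower, among them the related acetyltransferase genes Kat6a (-0.72) and Kat6b (-0.84).

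The same contrast within WT gave 6306 genes (32.6%) higher and 5172 (26.7%) lower in WT mTEChi than in WT mTEClo. Both genotypes called 3825 genes higher and 3142 lower in mTEChi, whereas 81 genes were higher in KO and lower in WT and 143 lower in KO and higher in WT. Counts of calls do not show a difference, so the difference of the contrasts was tested directly (KO minus WT of mTEChi minus mTEClo): 1301 genes (6.72%) had a higher and 1312 (6.78%) a lower fold change in KO, together 2613 (13.5%). When only the 12 mTEC libraries entered the fit, 2482 genes were higher and 1635 lower. The counts were 799 and 689 without KO pool 5, 792 and 711 without KO pool 6, and 659 and 971 at 2-fold or more. Of the 2613 genes, 1938 had a smaller absolute fold change in KO than in WT. Over all genes tested, the median absolute log2 fold change was 0.55 in KO and 0.77 in WT, and the interquartile range 1.19 in KO and 1.77 in WT. The genotypes differ in pools throughout, so genotype and pool cannot be told apart.

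**Figure D3:**
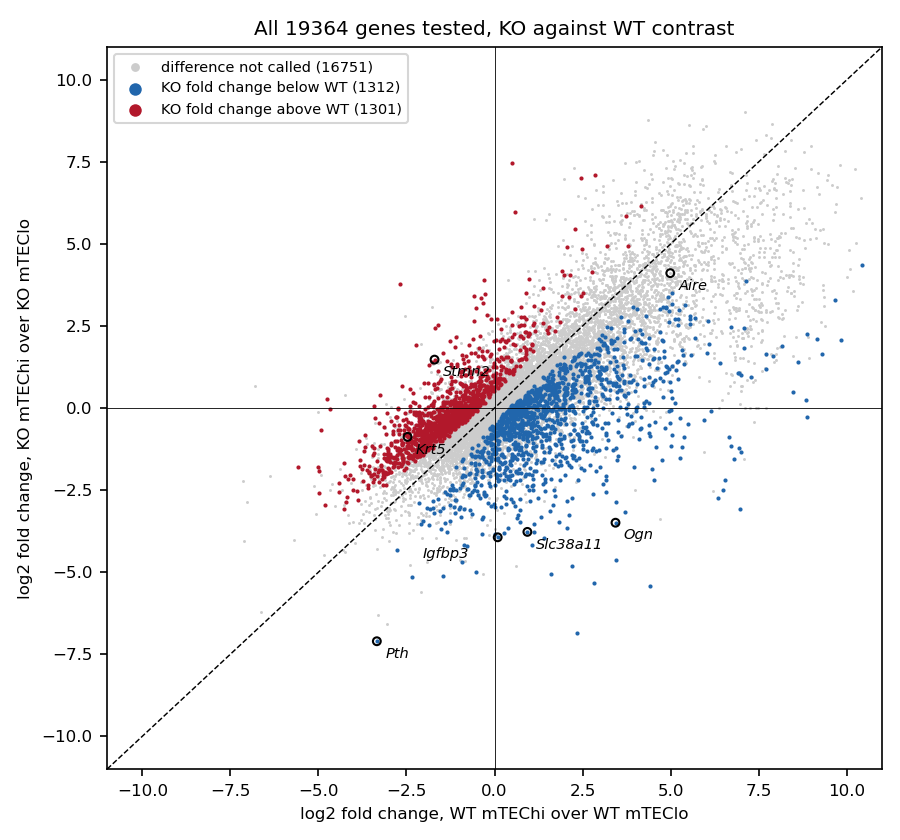
Log2 fold change of mTEChi over mTEClo in KO (vertical axis) against the same in WT (horizontal axis) for 19364 genes, with the dashed line at equality. Red points (1301) had a higher and blue points (1312) a lower fold change in KO by the test of the difference, and grey points (16751) were not called; Ogn lies at -3.49 in KO and 3.43 in WT.

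Immature and basal genes differed between the genotypes mostly in 1 direction: 11 of 14 had a higher, that is less negative, fold change in KO and 1 a lower. Krt5 fell by 0.88 on the log2 scale in KO and by 2.47 in WT (difference 1.59, SE 0.23, adjusted p = 7.38e-05), and it averaged 504 ± 111 CPM in KO mTEChi and 213 CPM in WT mTEChi. Lifr, a cytokine receptor gene, had -1.38 in KO and -3.41 in WT (difference 2.03, SE 0.21, adjusted p = 2.22e-06), and Ccl21a -2.59 in KO and -5.00 in WT (difference 2.40, SE 0.45, adjusted p = 0.000988). The exception was Krt15, with -2.53 in KO and 0.32 in WT (difference -2.85, SE 0.48, adjusted p = 0.000385). Interferon response genes showed a like split, with 11 of 20 less negative in KO and 0 more negative. Ddx58 had -1.24 in KO and -2.58 in WT (difference 1.34, SE 0.14, adjusted p = 3.86e-06). Of the tuft cell genes 6 of 22 were less negative in KO and 0 more negative, among them Alox5 (-1.41 in KO and -2.96 in WT, difference 1.55, adjusted p = 0.00141). Of the genes called lower in WT, the difference was called less negative in KO for 11 of 12 immature and basal genes (91.7%), 11 of 16 interferon response genes (68.8%) and 6 of 20 tuft cell genes (30%), against 1079 of 5172 over all genes (20.9%). Here and for the organ genes below, the WT contrast enters both the choice of genes and the difference. Such shares therefore favour a smaller fold change in KO and carry no test.

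In the other direction, organ genes had a lower fold change in KO for 29 of 207 members, where 6.78% of all genes did, and a higher one for 2, Crp and Prss2. Of the 163 organ genes called higher in WT, 24 (14.7%) had a lower fold change in KO, near the 15.2% (958 of 6306) of all genes called higher in WT. Their median log2 fold change was 2.59 in KO and 3.66 in WT (2.48 and 3.62 with bounds in KO and WT). The liver list held 6 of these 29 and the stomach and intestine list 5, and the medians of those lists were 1.80 and 1.88 in KO, against 4.24 and 3.03 in WT. Tdo2, a liver enzyme gene of tryptophan breakdown, averaged 33.1 ± 5.66 CPM in KO mTEChi and 9.57 ± 2.66 CPM in KO mTEClo (1.78), against 4.54 in WT (difference -2.75, SE 0.43, adjusted p = 0.000192). Cck, the cholecystokinin gene, had 0.35 in KO and 2.87 in WT (difference -2.52, SE 0.39, adjusted p = 0.00017). Neuroendocrine genes had a lower fold change in KO for 6 of 16 members and a higher one for 0. Chga fell by 5.12 in KO and by 1.47 in WT (difference -3.65, SE 0.60, adjusted p = 0.000324), and Pth by 7.11 in KO and by 3.34 in WT (difference -3.76, SE 1.14, adjusted p = 0.0324). For Aire the difference did not pass the test (4.11 in KO and 4.99 in WT, difference -0.88, SE 0.46, adjusted p = 0.228), and no medullary regulator did. Of the G2 and mitosis genes only Kif11, a spindle kinesin gene, passed (1.81 in KO and 3.19 in WT, difference -1.37, SE 0.39, adjusted p = 0.024).

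**Figure D4:**
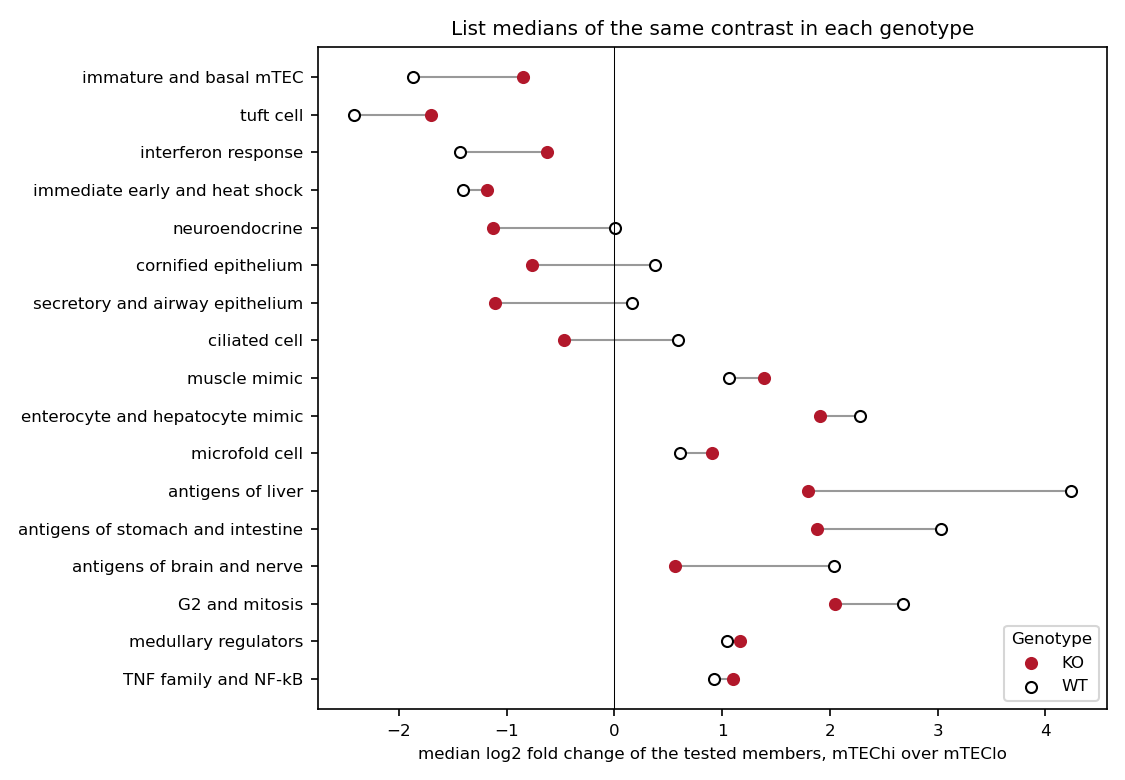
Median log2 fold change of mTEChi over mTEClo for 17 lists in KO (filled red) and in WT (open), with 1 row per list. The tuft cell list lies at -1.70 in KO and -2.42 in WT, and the immature and basal list at -0.85 in KO and -1.87 in WT.

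A set of 224 genes was called in opposite directions in the 2 genotypes. Ogn, a small proteoglycan gene of connective tissue, was at 2.03, 2.20 and 1.33 CPM in KO mTEChi of pools 4, 5 and 6, against 21.6, 19.7 and 23.5 CPM in KO mTEClo (-3.49, SE 0.29, adjusted p = 6.96e-09). It was at 4.98, 5.11 and 4.75 CPM in WT mTEChi of pools 1, 2 and 3, against 0.72, 0.52 and 0 CPM in WT mTEClo (3.43, SE 0.41, adjusted p = 7.53e-07). Stmn2, a microtubule regulator gene of neurons, was at 16.4, 17.2 and 15.5 CPM in KO mTEChi, against 6.09, 6.59 and 5.00 CPM in KO mTEClo (1.48, SE 0.19, adjusted p = 3.22e-06). In WT mTEChi it averaged 16.2 CPM, against 53.0 CPM in WT mTEClo (-1.70). For Stmn2 the mTEChi levels of the genotypes were close and the mTEClo levels were apart. Myog, described above as higher in KO mTEChi, had 15.2 CPM in WT mTEChi and 28.5 CPM in WT mTEClo (-0.92, adjusted p = 0.000917; difference 2.54, SE 0.29, adjusted p = 7.65e-06). The contrast of Igfbp3 was -3.94 in KO and 0.09 in WT, and the difference passed (-4.03, SE 0.29, adjusted p = 3.34e-08): its WT levels of 41.2 CPM in mTEChi and 38.4 CPM in mTEClo lay between those of KO mTEChi and KO mTEClo.

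The cortical libraries of the same mice gave a further level for the genes with the largest decreases. Both readings below share the KO mTEClo libraries, so they are given as values with no test. In KO cTEC, Pmp22 averaged 421 CPM, the scavenger receptor family gene Scarf2 73.5 CPM and Fmod, a collagen-binding proteoglycan gene, 179 CPM, each above its KO mTEClo level of 143, 13.5 and 36.9 CPM. The amino acid transporter gene Slc38a11 and Rfx6 stood lower in KO cTEC (2.15 and 1.39 CPM) than in KO mTEClo (15.1 and 10.96 CPM). Igfbp3 had a KO cTEC level of 227 CPM, close to the 259 ± 31.1 CPM of KO mTEClo.

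Promoters of the genes higher and lower in KO mTEChi differed in their content of CG pairs. In the 300-base RefSeq windows (GRCm38.p6), the median count of CG was 8 for genes called higher (4178 windows), 19 for genes called lower (4303 windows) and 18 for genes not called (9530 windows), and for genes higher by 4-fold or more it was 5. Windows with 5 or fewer CG pairs made up 37.9% of the windows of genes higher, 16.1% of those lower and 18.1% of those not called. The 533 genes lower by 4-fold or more were also poor in CG pairs, with a median of 9 and 37.2% of windows at 5 or fewer, so that low CG content was not limited to genes higher in KO mTEChi. TATAAA between 45 and 20 bases before the start was in 4.62% of windows of genes higher, 1.51% of those lower and 1.69% of those not called. It was in 7.5% of the windows of genes higher by 4-fold or more and in 3.5% of those of genes lower by 4-fold or more. Genes without a window in the table and genes with several starts were counted as the table gives them. These shares describe sequences and carry no test.

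**Figure D5:**
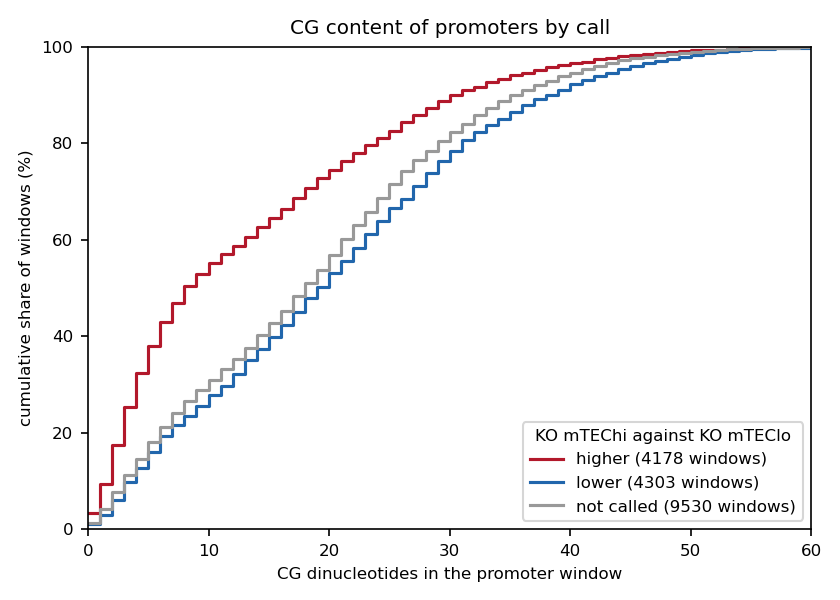
Cumulative percentage of promoter windows (vertical axis) by the number of CG pairs in 300 bases (horizontal axis) for genes higher in KO mTEChi (4178 windows), lower (4303 windows) and not called (9530 windows). The curve of the higher genes reaches 37.9% at 5 CG pairs, against 16.1% for the lower genes and 18.1% for the genes not called.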

How the data were processed

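RNA-seq was run on sorted thymic epithelial cells of Kat7 KO and WT C57BL/6 mice, 18 libraries from 6 mouse pools that the design text calls biological replicates. The authors deposited 1 table of raw counts per gene (27179 genes by Entrez ID), made with featureCounts on mm10 per the submitters' processing notes; the aligner and the strand setting are not given in the sources used here, so overlapping, antisense and near-identical genes are uncertain. All 18 libraries were fitted with edgeR 4.0.16 in R 4.3.3 (TMM scaling, filterByExpr with a minimum count of 10, quasi-likelihood test, 12 residual degrees of freedom, Benjamini-Hochberg over 19364 genes, threshold 0.05). The 3 contrasts were mTEChi minus mTEClo in KO, the same in WT, and KO minus WT of these. Levels are TMM-scaled CPM computed from the deposited counts, with the SD over pools. The step was tested on simulated data.

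Both fractions of a KO pool come from the same animals, but the main fit used group means without the pool as a block. Its p-values are therefore not those of paired tests. Deviations from the group means correlated by 0.239, 0.137 and 0.0683 within pools 4, 5 and 6. Between fractions of different pools the correlations ran from -0.181 to 0.0577, so that of pool 6 barely stood apart. Replicate libraries differed by more than sampling noise. Detected genes were counted after thinning to 6802970 reads in 10 draws. Named genes are Kat7 and Aire, the 12 highest and 12 lowest called log2 fold changes without overlap and with a mean of at least 5 CPM (no predicted or sex-linked genes), up to 4 genes per list by smallest adjusted p, 8 at each end of the difference and 8 called in opposite directions; other genes were chosen after their values were seen. The 42 lists (683 genes, 1 matched by a synonym and 1 unmatched) and the comparison were chosen with earlier results of these data known. Of 1312 genes without a symbol in the table, 35 were named from RefSeq. Coordinates and promoter sequences are RefSeq's, GRCm38.p6. Alternatives were DESeq2 1.42.0, its scaling, limma-voom (limma 3.58.1), other filters, other sets of libraries, the replicate block and leaving out each library or pool; permutation tests used scipy 1.17.1. Depth is given with the results.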

Additional observations from a re-analysis of the deposited data

Results flagged for a closer look

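The fold changes of mTEChi over mTEClo in KO and in WT differed most for 16 genes chosen at both ends of the tested difference (KO minus WT) and for others called in opposite directions in the genotypes, each by edgeR's test of the difference. Itga8, an integrin gene, had 3.82, 4.02 and 3.39 CPM in KO mTEChi of pools 4, 5 and 6, against 0, 0.06 and 0 CPM in KO mTEClo, and averaged 14.9 CPM in WT mTEChi and 2.77 CPM in WT mTEClo (difference 4.57, adjusted p = 6.68e-05). It had 108 reads in KO mTEChi and 1 in KO mTEClo, a ratio of 199 with a 95% counting interval from 34.9 to 7923. Nkain4 (difference 4.13) was higher in KO mTEChi than in KO mTEClo (2.45) and lower in WT mTEChi than in WT mTEClo (-1.68). Stmn2 (3.18), Alpk2 (3.27) and Cidea (3.16) showed the same opposite calls. St6galnac4 (3.22) was called in KO (2.64) and not in WT (-0.58), and its difference passed with adjusted p = 0.00301. Ttc24 (3.47) and Cxcl14 (3.64) were low in both KO fractions, with Cxcl14 at 0.95 CPM in KO mTEChi and 0.81 CPM in KO mTEClo, against 5.50 CPM in WT mTEChi and 53.9 CPM in WT mTEClo. The difference of Cxcl14 lost its call without KO pool 5 (adjusted p = 0.0576).

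At the other end, Dcpp3 (difference -9.08, adjusted p = 3.82e-07) was at 1.91, 3.04 and 3.83 CPM in KO mTEChi of pools 4, 5 and 6, against 6.83, 16.7 and 34.6 CPM in KO mTEClo, and at 29.1, 30.8 and 33.0 CPM in WT mTEChi of pools 1, 2 and 3, against 0.20, 0.39 and 0.59 CPM in WT mTEClo. Dcpp2 (-6.51) is a close relative with which reads may be shared. Igha (-8.07) rests on 1 library: its KO mTEClo levels were 0.20, 2.76 and 54.7 CPM in pools 4, 5 and 6, and without that of pool 6 the difference was -4.39 with adjusted p = 0.0946. The difference of Slamf1 (-6.06, adjusted p = 0.0322) is a fitted value against WT mTEClo libraries that had no read, and it lost its call in 8 repeats that left out a library or pool (adjusted p from 0.051 to 0.107) and with limma-voom (-2.85, adjusted p = 0.154). Ogn (-6.93), Dnah14 (-4.21), Gsta3 (-3.87), Ces1d (-3.97), Spink8 (-5.37) and Aldh1a1 (-3.83) were lower in KO mTEChi than in KO mTEClo and higher in WT mTEChi than in WT mTEClo. Ces1d was at 43.6, 48.4 and 51.1 CPM in KO mTEChi, against 69.5, 88.8 and 93.5 CPM in KO mTEClo, and averaged 133 CPM in WT mTEChi and 15.0 CPM in WT mTEClo. The KO call of Dnah14 (-0.98) was lost without some libraries (adjusted p from 0.0569 to 0.101). Wfdc12 (-4.65) and Cyp4b1 (-4.69) were lower in KO mTEChi than in KO mTEClo and did not pass in WT. The differences of Spink8 and Cyp4b1 did not pass with limma-voom (adjusted p = 0.109 and 0.0671), and that of Cyp4b1 was lost without WT mTEChi of pool 2 (adjusted p = 0.0595).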

How the results depend on the processing

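With the replicate block of mouse pool, the KO contrast had 4396 genes higher and 4632 lower; among named genes Vwf alone became called (log2 fold change 0.43, adjusted p = 0.0478). Leaving out 1 library or KO pool gave 3241 to 4174 genes higher and 2966 to 3983 lower in KO and, for the difference, 792 to 1284 higher and 689 to 1275 lower, with KO pool 6 (792 and 711) and KO pool 5 (799 and 689) lowest; leaving out 1 WT library gave 5903 to 6123 genes higher and 4424 to 4931 lower in WT. At 2-fold or more, 1758 genes were lower in KO and 659 had a higher fold change in KO than in WT, and with only the mTEC libraries fitted the second of these counts, without the fold limit, was 2482. The excess of detected genes in KO mTEChi was 1588.6 at 1 read or more, 822.0 at 10 or more, and 1092.3 to 1156.1 without 1 library. Over all alternatives, values of single genes kept direction and side of the threshold 3809 times, lost the call 58 times, gained it 14 times and reversed 0 times. List counts moved by over 1.5 times, or list medians by more than the SD over pools, in 231 repeats and stayed within that in 1911. The cause of these changes was not tested. Depth limits genes with few reads, whose ratios carry the intervals given.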
